A study of Mus musculus with 12 samples.

Results

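Type 2 immunity genes were followed as a set of 10 genes in the lung and terminal ileum of neonatal mice raised in air or in hyperoxia. The genes are Arg1, Retnla, Chil3 (older symbol Chi3l3), Chia1 (older symbol Chia), Il4ra, Il13, Il13ra1, Il13ra2, Gata3 and Ccl24. All probes whose annotation names one of these genes, by its current or an older symbol, were taken, which gave 14 of the 45281 probes on the array and 10 of the 19057 genes with a named probe. Arg1 and Chia1 have 2 probes each, Chil3 has 3, and the others have 1. RNA was read on 12 bead arrays (MouseWG-6 v2.0), with 3 arrays in each of 4 groups, made by exposure to normoxia or hyperoxia and by tissue, lung or ileum. All animals were C57BL/6 pups (C57Bl/6J in the study's methods) aged 14 days. The normoxia groups breathed oxygen at a fraction (FiO2) of 0.21 and the hyperoxia groups at 0.85, from day 3 to day 14 of life, with no other treatment or allele given. By the labels the tissues were right lung and terminal ileum, whereas the methods name the left lower lobe of the lung. Pooled litters, not single pups, were assigned to an exposure, so litter and exposure cannot be told apart. Nothing states that the replicates within a group came from different animals. The p-values therefore reflect the spread among these samples alone, and that spread may be technical.

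The tissue of 6 arrays differs between the tissue label and the source name, and the tissue label was used. The summed signal of 8 lung markers was 76152 to 91974 on arrays labelled lung and 175 to 291 on arrays labelled ileum, and that of 8 ileum markers was 53295 to 59339 on ileum arrays and 80.6 to 105 on lung arrays. Among the ileum markers Fabp2 and Slc10a2 were not detected on any ileum array. Each array detected 42.6% to 46.0% of its probes. The ratio of bright probes to background was 15.5 to 16.8 on normoxia lung arrays and 14.6 to 18.98 on hyperoxia lung arrays, and in the ileum 15.5 to 15.9 without and 11.4 to 13.2 with hyperoxia, so the exposure groups were apart in it in the ileum and not in the lung. Hyperoxia lung replicate 3 and normoxia lung replicate 1 stood apart from their groups in several of the genes described here. Values without them are given for several members and list counts. Fold changes of listed genes outside the members, such as Ccl8, Ccl11, Clec10a and Mgl2, are given with all arrays only.

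Type 2 immunity is the arm of the immune system that answers helminths, allergens and tissue damage. Its cytokines IL-4 and IL-13 bind receptors built on the IL-4 receptor alpha chain, and the bound receptor activates the transcription factor STAT6. In macrophages this signal induces a state called alternative activation, for which Arg1, Retnla and Chil3 are the usual mouse marker genes. In epithelium the same cytokines act on mucus and chitinase genes. In the lung the main sources of IL-13 are group 2 innate lymphoid cells and T helper 2 cells, both of which need the transcription factor GATA3.

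The promoters of 3 members are shown first, because these genes had the highest ratios of lung to ileum signal in normoxia. They are the RefSeq promoters on mouse build GRCm38.p6, from 250 bases before to 50 after the start of the gene, and 8 of the 10 members had an entry. Capitals mark matches, on either strand, to TTC and GAA held 4 bases apart (the palindrome that STAT6 prefers), TTCNNNGAA (the shorter palindrome that most STAT factors bind) or TTGCNNAA (the half-sites of the C/EBP factors).
Retnla, chr16:48842359-48842658, plus strand: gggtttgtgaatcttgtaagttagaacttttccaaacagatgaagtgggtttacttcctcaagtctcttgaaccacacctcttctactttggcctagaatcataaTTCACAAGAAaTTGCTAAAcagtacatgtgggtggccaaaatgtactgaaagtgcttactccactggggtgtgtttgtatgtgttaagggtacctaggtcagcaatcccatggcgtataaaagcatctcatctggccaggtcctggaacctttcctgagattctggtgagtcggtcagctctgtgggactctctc
Chil3, chr3:106167515-106167814, minus strand: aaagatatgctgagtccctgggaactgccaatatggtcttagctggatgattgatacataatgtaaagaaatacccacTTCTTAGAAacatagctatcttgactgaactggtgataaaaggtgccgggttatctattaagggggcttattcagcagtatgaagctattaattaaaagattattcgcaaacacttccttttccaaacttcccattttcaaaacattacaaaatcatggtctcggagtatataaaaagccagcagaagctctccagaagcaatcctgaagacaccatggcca
Chia1, chr3:106113132-106113431, plus strand: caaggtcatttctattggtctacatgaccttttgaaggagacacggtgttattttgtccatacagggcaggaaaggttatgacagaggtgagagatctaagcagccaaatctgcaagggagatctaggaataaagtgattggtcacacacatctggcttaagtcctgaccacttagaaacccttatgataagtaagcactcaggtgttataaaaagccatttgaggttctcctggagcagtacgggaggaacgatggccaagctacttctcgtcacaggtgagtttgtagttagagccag

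The Retnla promoter held TTCACAAGAA at positions −145 to −136 from the start, followed at −134 to −127 by a match to TTGCNNAA, and these do not overlap. The Chil3 promoter held TTCTTAGAA at positions −172 to −164. The Chia1 promoter held no match to any of these motifs. Of 32851 promoters of the same length, 6.95% held TTC and GAA 4 bases apart, 8.3% held TTCNNNGAA and 10.8% held TTGCNNAA, so a match is common. The GATA motif AGATAA, searched on both strands and held by 11.2% of promoters, occurred in those of Chil3, Il13 and Il13ra2. A match describes the letters only and says nothing of binding.

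Arg1 and Ccl24 were higher and Chia1 and Gata3 lower in hyperoxia lung than in normoxia lung, and Il13, Il4ra and Il13ra1 did not pass the test. Il13ra2 was not tested. Testing in a tissue required detection (p-value under 0.05 against the negative control beads) on 3 or more of its 6 arrays. Calls were made at an adjusted p under 0.05 from limma after Benjamini-Hochberg adjustment over all genes tested. In the lung 9 members were tested, of which 2 rose, 2 fell and 5 did not pass, beside 20.5% of 11214 genes called (9.9% higher and 10.6% lower). The exposure groups did not overlap for 4 of these 9 members, beside 43.3% of all genes. The members' median log2 fold change was 0.35, against 0.02 over all tested genes. In the ileum 6 members were tested and 0 were called, beside 26.8% of 11178 genes. At an unadjusted p under 0.05 the ileum count was 1.

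**Figure D1:**
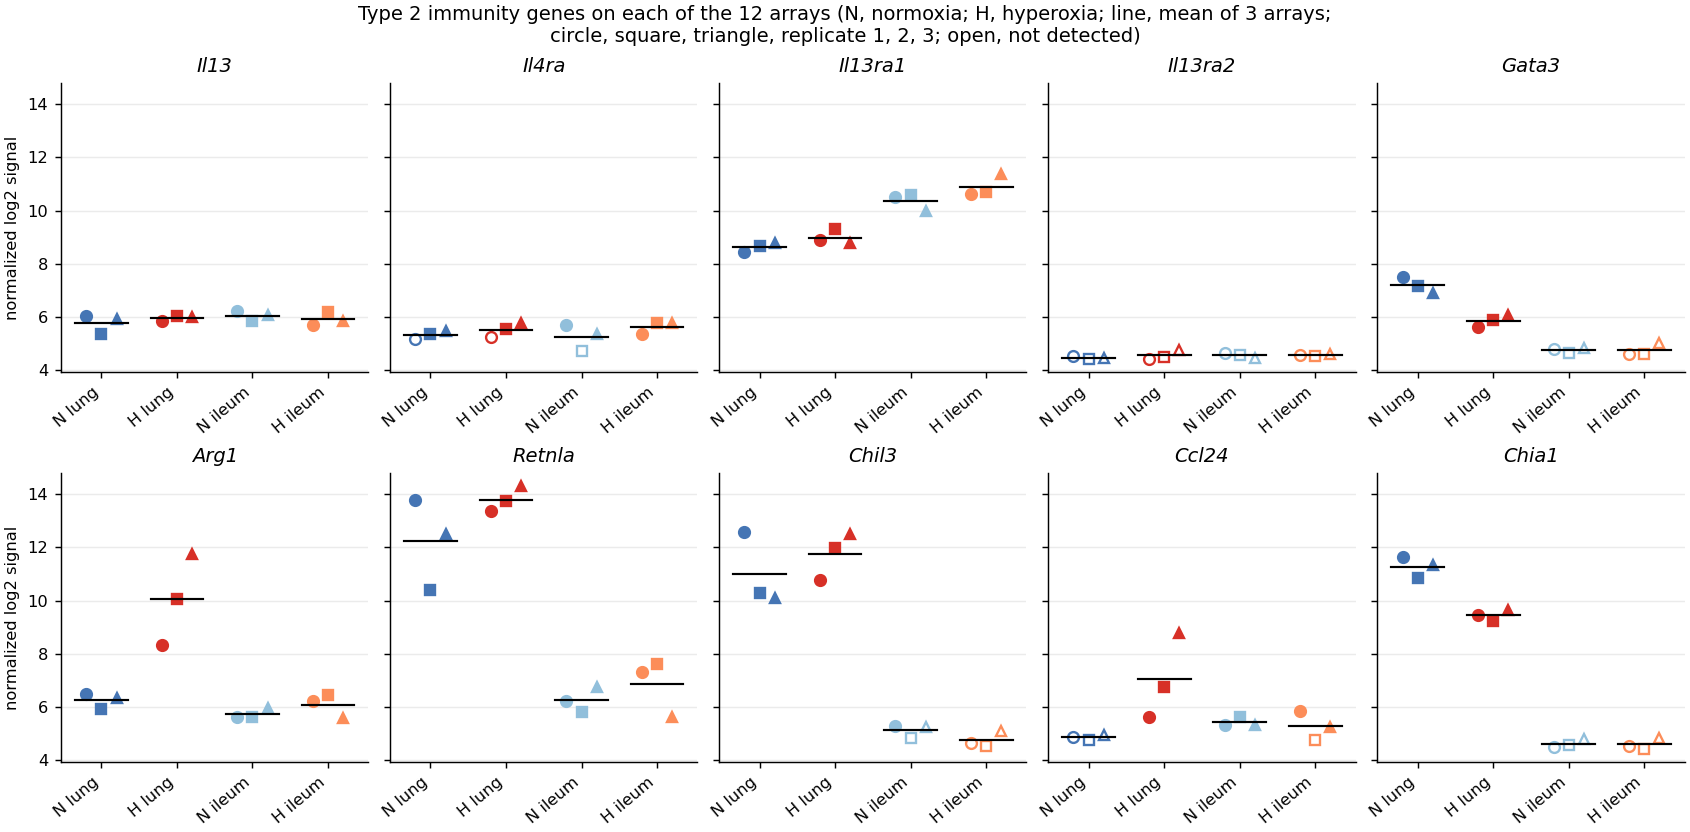
Normalized log2 signal of each member (y axis, brightest probe) on each of the 12 arrays, by group of 3 (x axis), with lines at group means, marker shapes for replicates 1 to 3, and open markers where the probe was not detected. Arg1 and Ccl24 lie higher in hyperoxia lung than in normoxia lung, Chia1 and Gata3 lie lower, and Il13ra2 is open on all 12 arrays. Signals of different genes come from different probes and are not comparable with each other.

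Il13 (chr11:53631323-53634702, gene positions on GRCm38.p6), the ligand of the set, was detected on all 12 arrays at a low signal. Its normalized log2 signal was 6.03, 5.35 and 5.91 in normoxia lung and 5.85, 6.03 and 6.00 in hyperoxia lung. In the ileum it was 6.21, 5.85 and 6.06 in normoxia and 5.69, 6.20 and 5.84 in hyperoxia. The groups overlapped in both tissues. The lung log2 fold change was 0.19, with a 95% confidence interval from −0.24 to 0.63, and the ileum value was −0.13, from −0.57 to 0.30. A change of more than 2-fold in either direction is outside both intervals.

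Of 7 other ligands and alarmins, the signals that start or carry type 2 responses, 2 were tested in the lung and 1 rose. Il33, an alarmin released by damaged barrier cells, was 9.22, 8.97 and 9.02 in normoxia and 9.61, 10.30 and 11.03 in hyperoxia, a log2 fold change of 1.25 (SE 0.30, adjusted p = 0.00837 from limma). All hyperoxia lung arrays were above all normoxia lung arrays, and replicate 3 was the highest. Tslp, an epithelial alarmin, did not pass at a log2 fold change of −0.51 (adjusted p = 0.0586 from limma). Il4 was detected on 1 lung array, and Il5, Il9, Il25 and Il31 were not detected on any lung array. In the ileum Il33 changed by 0.11 and did not pass.

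Il4ra (chr7:125552271-125579474) encodes the chain shared by the IL-4 and IL-13 receptors. Its signal lay near the detection limit, at 5.16, 5.37 and 5.47 in normoxia lung and 5.23, 5.55 and 5.78 in hyperoxia lung, with replicate 1 of each group not detected. In the ileum it was 5.69, 4.72 and 5.37 in normoxia, the second of these not detected, and 5.36, 5.77 and 5.78 in hyperoxia. The groups overlapped in both tissues, with log2 fold changes of 0.19 (95% interval −0.32 to 0.70) in the lung and 0.38 (−0.13 to 0.89) in the ileum.

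Il13ra1 (chrX:36112108-36171262), which pairs with the alpha chain to form the receptor for IL-13, was well above background on all 12 arrays and was higher in the ileum than in the lung. It was 8.44, 8.65 and 8.78 in normoxia lung and 8.88, 9.29 and 8.76 in hyperoxia lung. In the ileum it was 10.53, 10.59 and 10.00 in normoxia and 10.62, 10.71 and 11.37 in hyperoxia. The lung groups overlapped, whereas all hyperoxia ileum arrays were above all normoxia ileum arrays, as for 40.1% of genes tested there. The log2 fold change was 0.35 (SE 0.23, adjusted p = 0.324 from limma) in the lung and 0.53 (SE 0.23, adjusted p = 0.105 from limma) in the ileum.

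Il13ra2 (chrX:147383478-147429192), the decoy receptor that binds IL-13 without passing on the signal, was not detected on any of the 12 arrays. Its lowest detection p-value was 0.252, and it was not tested. Of the 10 receptor genes listed, 4 were tested in the lung (Il4ra, Il13ra1, Crlf2 and Il7r) and 0 were called, with a median log2 fold change of 0.26 (−0.024 without hyperoxia lung replicate 3 and 0.16 without normoxia lung replicate 1). Crlf2, part of the TSLP receptor, had a value of 0.02, and Il7r a value of 0.34.

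Gata3 (chr2:9857078-9887953), the transcription factor of type 2 lymphocytes, fell in the lung. It was 7.50, 7.18 and 6.89 in normoxia lung and 5.63, 5.88 and 6.08 in hyperoxia lung, with all 6 arrays detected. The hyperoxia arrays all lay below the normoxia arrays, with a log2 fold change of −1.32 (SE 0.19, adjusted p = 2.87e-04 from limma), a 2.50-fold lower signal. Without background correction it was −0.65 (adjusted p = 0.00104). No ileum array detected Gata3, so no change was tested there. These are bulk tissues, so fewer cells of a type and less RNA per cell cannot be told apart.

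Genes of T cells and innate lymphoid cells were read beside Gata3, which also lies in epithelium and endothelium. Of 4 tested T cell markers 3 fell in hyperoxia lung: Cd3d (log2 fold change −1.85), Cd3e (−1.46) and Cd3g (−1.39), the chains of the T cell receptor complex. Thy1 had a value of −0.21 and did not pass, and Cd4 and Cd8a were not detected on any lung array. The summed T cell signal was 1384 to 1644 on normoxia lung arrays, and 502, 844 and 1341 on hyperoxia replicates 1, 2 and 3. Gata3 had the same order on these hyperoxia arrays, as did 16.7% of all tested lung genes. Thy1 alone gave 41.4% to 45.8% of the T cell sum in normoxia lung and 56.2% to 72.9% in hyperoxia lung. The sum therefore leans on 1 gene, which did not pass. On replicate 3 Gata3 was 1.11 log2 units below its normoxia lung mean. Of 5 tested genes of group 2 innate lymphoid cells, 2 fell (Gata3 and Rora) and 1 rose (Arg1), and 2 of these 3 are members themselves. The part of cell numbers in the fall of Gata3 was not tested.

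Of 15 tested genes of type 2 signalling and transcription, 5 fell and 0 rose in the lung, with a median log2 fold change of −0.11 (−0.021 without hyperoxia lung replicate 2 and −0.26 without replicate 3). Besides Gata3 these were Jak1 (−1.33, SE 0.19, adjusted p = 2.24e-04 from limma), a kinase bound to the IL-4 receptor, Kdm6b (−0.86), a histone demethylase, Rora (−0.82), a factor needed by innate lymphoid cells, and Maf, a transcription factor that was not detected on any hyperoxia lung array and was at least 1.35-fold lower. Maf passed the filter through the normoxia lung arrays alone. Stat6 was 7.73 ± 0.25 (SD, n = 3) in normoxia and 7.64 ± 0.29 (SD, n = 3) in hyperoxia and did not pass. Without normoxia lung replicate 1 or hyperoxia lung replicate 1, 3 of the 15 fell. In the ileum Cish, an inhibitor of cytokine signalling, rose by 0.84, and Irf4 and Klf4, both factors of macrophage activation, fell by 0.87 and 0.74, of 14 tested.

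Arg1 (chr10:24915207-24927470), the arginase of alternatively activated macrophages, rose in hyperoxia lung. It was 6.48, 5.94 and 6.35 in normoxia lung and 8.33, 10.06 and 11.75 in hyperoxia lung. Every hyperoxia array was above every normoxia array, and the hyperoxia arrays were themselves 3.42 log2 units apart. The log2 fold change was 3.79 (SE 0.58, adjusted p = 3.85e-04 from limma), a 13.8-fold higher signal. Without hyperoxia lung replicate 3 it was 2.93 (adjusted p = 3.34e-04), and without replicate 1 it was 4.64. The second Arg1 probe was 6.20, 6.05 and 5.34 in normoxia lung and 7.22, 9.01 and 10.41 in hyperoxia lung. Its log2 fold change was 3.02 (SE 0.57, adjusted p = 0.00227 from limma over all probes).

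In the ileum Arg1 was 5.62, 5.64 and 5.97 in normoxia and 6.24, 6.44 and 5.58 in hyperoxia. The groups overlapped, with a log2 fold change of 0.34 (95% interval −0.90 to 1.58). The order of mean Arg1 levels was hyperoxia lung, normoxia lung, hyperoxia ileum and normoxia ileum. Of these steps, that between the lung groups passed the test, and normoxia lung against normoxia ileum did not (log2 difference 0.52, adjusted p = 0.475 from limma).

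Ccl24 (chr5:135569935-135573123), the chemokine eotaxin-2 that attracts eosinophils through the receptor CCR3, was not detected on any normoxia lung array and was detected on all 3 hyperoxia lung arrays. It was 4.86, 4.76 and 4.95 in normoxia lung and 5.61, 6.76 and 8.77 in hyperoxia lung. The hyperoxia arrays were 3.16 log2 units apart, with replicate 1 close to the background and replicate 3 the highest. The signal was at least 3.54-fold higher in hyperoxia (adjusted p = 0.0117 from limma). Such a bound sets the mean of the bright group against, on each array of the dim group, the higher of the lowest signal of any detected probe and the probe's own. Ccl24 passed the detection filter in the lung through the hyperoxia arrays alone. The fitted log2 fold change was 2.19, without hyperoxia lung replicate 3 it was 1.33 (adjusted p = 0.0148), and without background correction it was 1.05 (adjusted p = 0.0419). The bound holds for the background-corrected values only. In the ileum Ccl24 was 5.33, 5.64 and 5.32 in normoxia and 5.85, 4.76 and 5.27 in hyperoxia, the second of these not detected, and the log2 fold change was −0.14 (95% interval −1.31 to 1.03).

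Retnla (chr16:48842609-48844461), the secreted protein RELM alpha of alternatively activated macrophages and airway epithelium, was bright in the lung and spread widely in normoxia. It was 13.78, 10.41 and 12.52 in normoxia lung and 13.35, 13.74 and 14.29 in hyperoxia lung. The groups overlapped, because normoxia replicate 1 was above hyperoxia replicates 1 and 2. The log2 fold change was 1.56 (SE 0.68, adjusted p = 0.126 from limma). Without normoxia lung replicate 1 it was 2.33 and passed (adjusted p = 0.0248), and without normoxia lung replicate 2 it was 0.65 (adjusted p = 0.494). In the ileum Retnla was 6.24, 5.80 and 6.76 in normoxia and 7.31, 7.62 and 5.63 in hyperoxia, with overlapping groups and a log2 fold change of 0.59 (95% interval −0.86 to 2.03).

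Chil3, the chitinase-like lectin Ym1 that macrophages secrete, was 12.58, 10.30 and 10.11 in normoxia lung and 10.78, 11.97 and 12.52 in hyperoxia lung. Normoxia replicate 1 was above all hyperoxia arrays, so the groups overlapped. The log2 fold change was 0.76 (SE 0.54, adjusted p = 0.367 from limma), and without normoxia lung replicate 1 it was 1.56 and passed (adjusted p = 0.0179). Without hyperoxia lung replicate 1 it was 1.25, and without normoxia replicate 2, normoxia replicate 3 or hyperoxia replicate 3 it was 0.42, 0.32 and 0.38, none of which passed. The other Chil3 probes read 1.13 and 0.66 and did not pass. On all 3 probes normoxia replicate 1 was the highest normoxia array. In the ileum Chil3 was detected on 1 of 6 arrays by 1 probe and on 0 by the others, and it was not tested.

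Chil4, a close paralog of Chil3 from the same gene family, was 12.85, 10.17 and 10.42 in normoxia lung and 11.16, 12.39 and 12.73 in hyperoxia lung. As for Chil3, replicate 1 was the highest normoxia array and replicate 3 the highest hyperoxia array. Whether probes of this pair also read RNA of the other gene was not tested. Clca1, a goblet cell protein induced by IL-13 that was chosen after its values were seen, was 10.88, 5.46 and 11.42 in normoxia lung, with replicate 2 low as for Retnla, and did not pass (log2 fold change 1.45, adjusted p = 0.406 from limma).

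Chia1, the acidic chitinase that lung epithelium secretes and that degrades chitin, fell in the lung. It was 11.64, 10.84 and 11.32 in normoxia lung and 9.46, 9.22 and 9.65 in hyperoxia lung. Its arrays spanned 0.80 log2 units in normoxia lung and 0.43 in hyperoxia lung. The lowest normoxia array was above the highest hyperoxia array. The log2 fold change was −1.82 (SE 0.21, adjusted p = 4.17e-05 from limma), a 3.54-fold lower signal. The second Chia1 probe was 10.63, 9.63 and 10.37 in normoxia lung and 8.30, 8.17 and 8.16 in hyperoxia lung, and it fell by 2.00 (adjusted p = 3.45e-05 from limma over all probes). No ileum array detected either probe. Counted by probes, 6 of the members' 13 tested lung probes were called, beside 17.4% of all probes tested in the lung. Arg1 and Chia1 each gave 2 of these 6, so the count is not one of separate genes.

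Chia1 and Chil3 lie on chromosome 3 at 106113382 to 106132118 and 106147554 to 106167564 (GRCm38.p6). Of 5 tested genes of the chitinase family in the lung, Chia1 fell, Chid1 rose (log2 fold change 0.76, adjusted p = 0.0089 from limma) and Chil1, Chil3 and Chil4 did not pass. Of 8 tested epithelial type 2 effectors, Slc26a4, the anion exchanger pendrin, rose by 3.13 (SE 0.48, adjusted p = 3.71e-04 from limma). Chia1 was the one that fell. Without normoxia lung replicate 1, 4 of the 5 chitinase family genes were called, 3 of them higher in hyperoxia. Of the resistin family, Retnla and Retnlg (0.44) were tested in the lung and did not pass, and Retnla passed without that array.

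**Figure D2:**
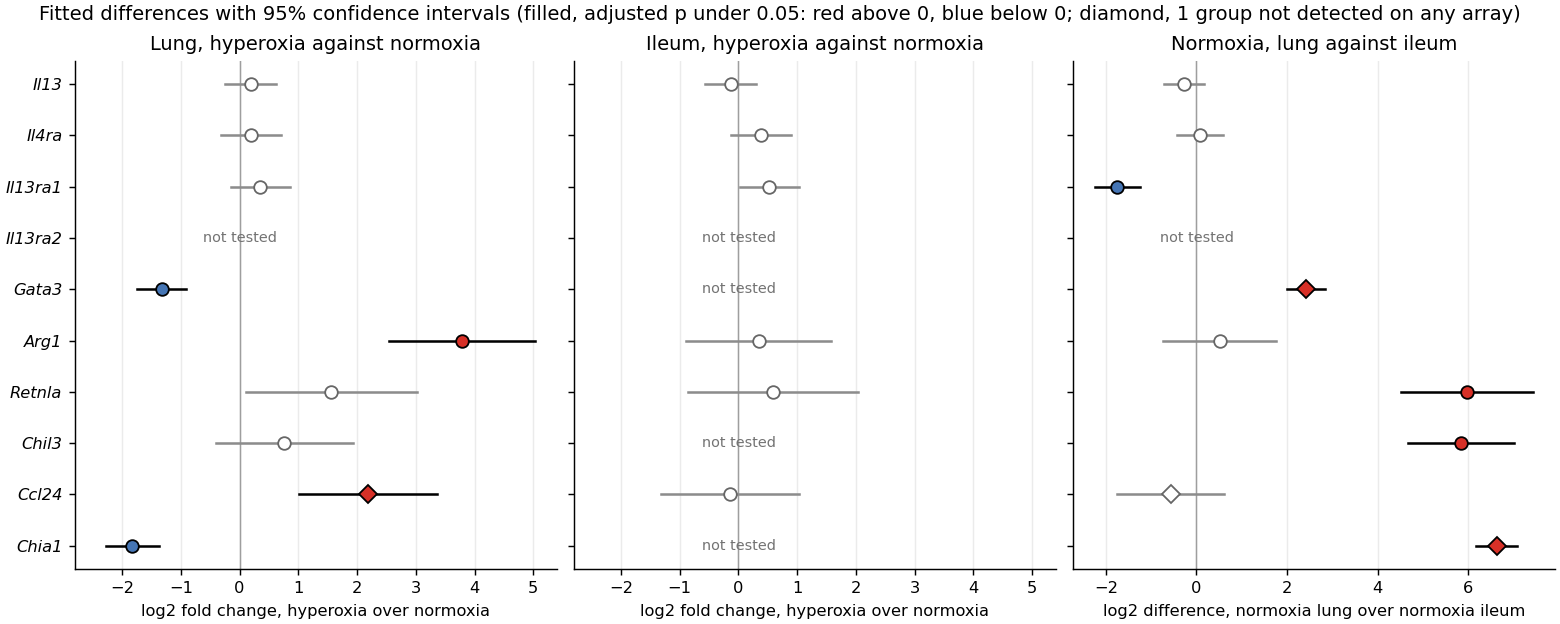
Fitted log2 differences of each member with 95% confidence intervals (x axis) for hyperoxia against normoxia in the lung (left) and ileum (middle), drawn to the same scale, and for normoxia lung against normoxia ileum (right), with filled markers at an adjusted p under 0.05 and diamonds where 1 group was not detected. In the lung Arg1 and Ccl24 are filled above 0 and Chia1 and Gata3 below, in the ileum no marker is filled, and in normoxia Retnla, Chil3, Chia1 and Gata3 are filled on the side of the lung, the last 2 as diamonds whose fitted position rests on an undetected ileum signal.

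Of 15 tested alternatively activated macrophage genes in the lung, 10 rose, 0 fell and 5 did not pass, with a median log2 fold change of 1.26. Arg1 and Ccl24 were joined by Trem2 (2.79), a lipid receptor of macrophages, Ccl17 (2.41), a chemokine for T helper 2 cells, Egr2 (1.87), a transcription factor, F13a1 (1.72), a coagulation factor chain, and Clec10a (1.26), Mgl2 (1.22), Mrc1 (1.08) and Fn1 (0.99). Clec10a, Mgl2 and Mrc1 are lectins of macrophages, and Fn1 encodes fibronectin. The exposure groups did not overlap for 9 of the 15, beside 43.3% of all tested lung genes. Among the 10 called, Mgl2 was the one with overlapping groups. Retnla, Chil3, Cd163, Tgm2 and Cdh1 were above 0 and did not pass. The count was 7 to 12 when single lung arrays were left out, with 12 without normoxia lung replicate 1 and 9 without hyperoxia lung replicate 3. In the ileum 1 of 13 tested genes rose, F13a1, with a log2 fold change of 1.93.

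Of 10 listed eosinophil-attracting and type 2 chemokines and receptors, 5 were tested in the lung. All 5 rose, with a median of 2.41, beside 9.9% of all tested lung genes higher in hyperoxia. Ccl24, among them, passed the filter through the hyperoxia arrays alone. Ccl1, Ccl22 and the receptors Ccr3, Ccr4 and Ccr8 were not detected on any lung array. Ccl7 was 5.76, 5.76 and 5.57 in normoxia and 9.95, 9.99 and 10.16 in hyperoxia, so its hyperoxia arrays were close together. Ccl8, which attracts T helper 2 cells in mice, was 5.36, 5.85 and 5.67 in normoxia and 8.35, 8.70 and 11.58 in hyperoxia. Ccl11 (eotaxin-1) rose by 1.46 and Ccl17 by 2.41. The count was 5 without any single lung array. In the ileum Ccl7, Ccl11 and Ccl24 were tested and did not pass.

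Arginine is the substrate that arginase shares with the nitric oxide synthases. Of 10 tested genes of arginine handling in the lung, 6 rose and 1 fell, while 9.9% of all tested lung genes were higher and 10.6% lower. The count called was 7 with all arrays, and 5 to 6 when single lung arrays were left out. Beside Arg1, the rises were Ass1 (1.59), which makes the precursor of arginine, Arg2 (1.57), the mitochondrial arginase, Odc1 (1.48), which turns ornithine into polyamine, Ddah1 (0.61) and Asl (0.49), and Ddah2 fell by 0.83. Nos2, the inducible synthase of classically activated macrophages, was detected on 1 lung array and was not tested. In the ileum 2 of 12 tested genes rose, Otc (1.11) and Asl (0.68), and 2 fell. The latter, Arg2 and Nos2, were detected on all normoxia arrays and on no hyperoxia array, at least 1.27-fold and 1.96-fold lower. Both passed the filter through the normoxia ileum arrays alone.

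Genes of the opposing type 1 response gave a median of −0.66 over 7 tested in the lung (−0.59 with Il12a at its bound). Gbp2 (−1.43), Irf1 (−0.66) and Il12a (at least 1.26-fold lower) fell, and Cxcl10 rose by 1.86. Il12a passed the filter through the normoxia lung arrays alone. Ifng was not detected on any array. In the ileum 4 of 7 fell: Cxcl9 (−2.88), Irf1 (−0.53), and Cxcl10 and Nos2, which no hyperoxia ileum array detected. Among epithelial type 2 effectors in the ileum, 3 of 9 fell, and the largest was Retnlb, a goblet cell relative of Retnla, which was detected on all normoxia arrays and no hyperoxia array and was at least 9.82-fold lower (adjusted p = 5.21e-06 from limma). Retnlb passed the filter through the normoxia ileum arrays alone, as did Cxcl10 and Nos2. Itln1 (−1.10) and Spdef (−0.86), of goblet and Paneth cells, fell as well.

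**Figure D3:**
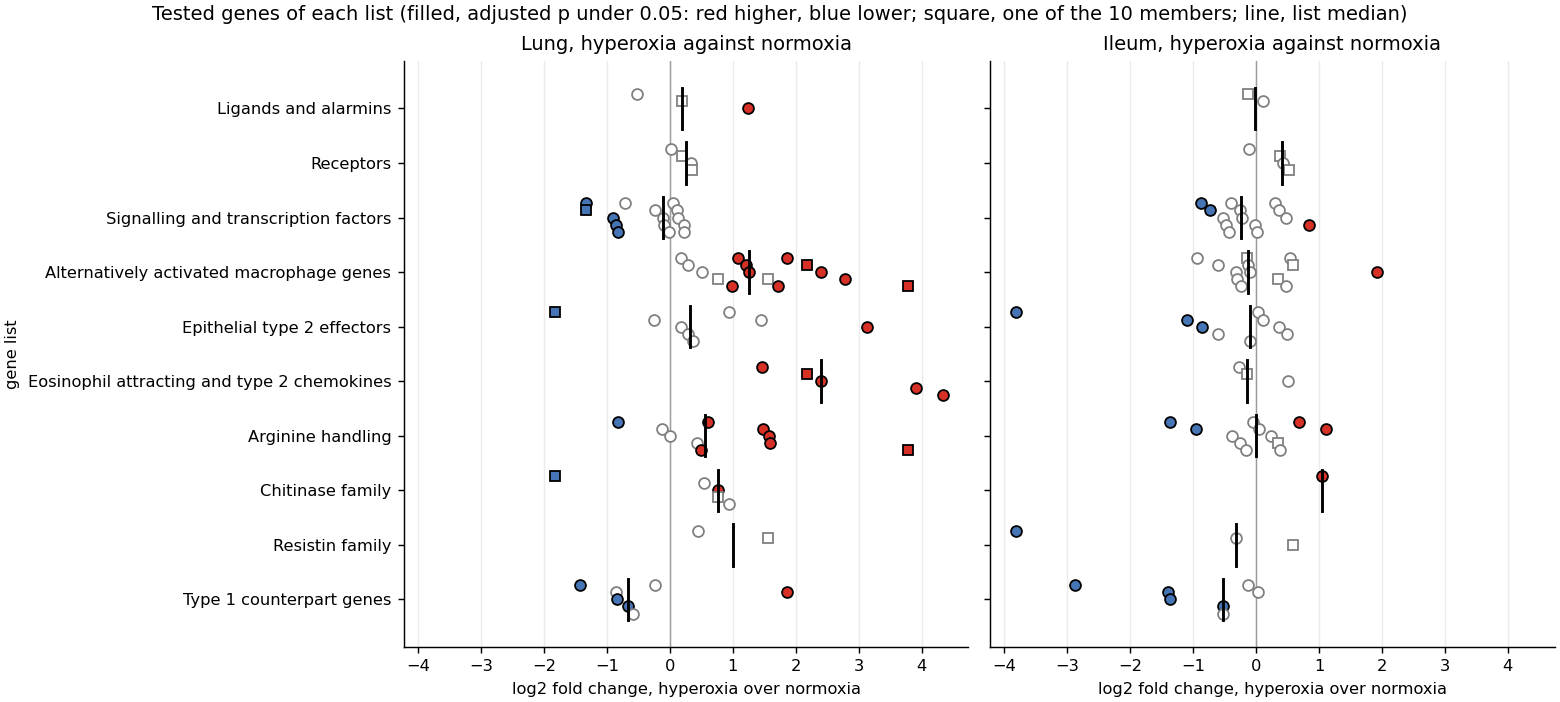
Log2 fold change of each tested gene (x axis) in 10 gene lists (y axis) in the lung (left) and ileum (right), with filled markers at an adjusted p under 0.05, squares for the 10 members and lines at list medians. In the lung 10 of 15 alternatively activated macrophage genes and 5 of 5 chemokines are filled above 0, against 1 of 13 and 0 of 3 in the ileum.

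Markers of other cell types were read in the lung as well, where some rose and others fell. Of 7 tested macrophage markers 5 rose, the complement genes C1qa (1.37), C1qb (1.47) and C1qc (1.24), Adgre1 (1.19) and Fcgr1 (1.15), and Mertk fell by 0.70. The count of markers called was 3 without normoxia lung replicate 1. The summed macrophage signal was 3414 to 3895 on normoxia lung arrays and 5735 to 9416 on hyperoxia lung arrays, with replicate 3 the highest. Of 4 tested alveolar macrophage markers 2 fell, Car4 (−1.34) and Krt79, which no hyperoxia lung array detected. Krt79 passed the filter through the normoxia lung arrays alone. Marco rose (0.75), a call that was lost on leaving out any lung array but hyperoxia replicate 3. The sum was 1910 to 2720 in normoxia lung and 852 to 1313 in hyperoxia lung. Car4 alone gave 84.3% to 95.1% of it, so the sum follows 1 gene and does not measure these cells. Siglecf and Fabp4 were not detected on any lung array. Among 7 tested mast cell and basophil markers 4 rose, all proteases of mast cell granules: Cpa3 (2.82), Cma1 (2.48), and Tpsb2 and Mcpt4, which no normoxia lung array detected and which were at least 4.49-fold and 3.85-fold higher. Tpsb2 and Mcpt4 passed the filter through the hyperoxia arrays alone. Kit fell by 2.76. The sum of this list was 7386 to 9122 in normoxia lung and 3378 to 8456 in hyperoxia lung. Kit gave 46.5% to 64.5% of it in normoxia lung and Hdc 57.8% to 67.3% in hyperoxia lung. The sum therefore says little of the proteases. Mcpt1, Mcpt2, Mcpt8 and Ms4a2 were not detected on any lung array. Of 6 eosinophil markers 0 were tested, and Epx, Siglecf and Ccr3, the receptor for Ccl24, were not detected on any lung array. Of the lung arrays, hyperoxia replicate 3 alone detected Prg2 and Ear6, and its eosinophil sum was 218, against 56.0 to 79.3 on the other 5. Of 5 tested monocyte markers 2 rose, Vcan (at least 3.33-fold) and Ccr2 (at least 1.66-fold), both detected on no normoxia lung array. These 2 passed the filter through the hyperoxia lung arrays alone. Ly6c1, Plac8 and Fcgr4, detected in both lung groups, did not pass. In other cells, 2 of 2 B cell markers fell and 1 of 7 neutrophil markers fell (2 without hyperoxia lung replicate 3). The part of these cells in the members' changes was not tested.

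On the hyperoxia lung arrays Arg1, Ccl24, Retnla, Chil3, Gata3 and Il4ra were each lowest on replicate 1 and highest on replicate 3. That is 6 of 9 tested members, whereas 16.7% of all tested lung genes had that order. All genes share these 3 arrays, so the members are not separate cases, and the shares were not compared by a test. Il4ra was not detected on replicate 1. Replicate 3 was 10.7-fold above replicate 1 for Arg1, 8.92-fold for Ccl24, 3.33-fold for Chil3 and 1.92-fold for Retnla. Over all tested genes the median range of the 3 hyperoxia lung arrays was 0.40 log2 units, and that of the normoxia lung arrays was 0.30. The hyperoxia range was 0.43 for Chia1, 0.46 for Gata3 and 0.17 for Il13. Retnla, Chil3, Chia1, Gata3 and Il13 had a wider range in normoxia lung than in hyperoxia lung, for Retnla 3.36 against 0.94 and for Chil3 2.47 against 1.74. Cpa3, Cma1, Ccl8 and Ccl11 were likewise highest on replicate 3, and Ccl7 and Ccl17 were nearly level across the 3 arrays. Replicates carry no order, and only the difference between single arrays is described.

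**Figure D4:**
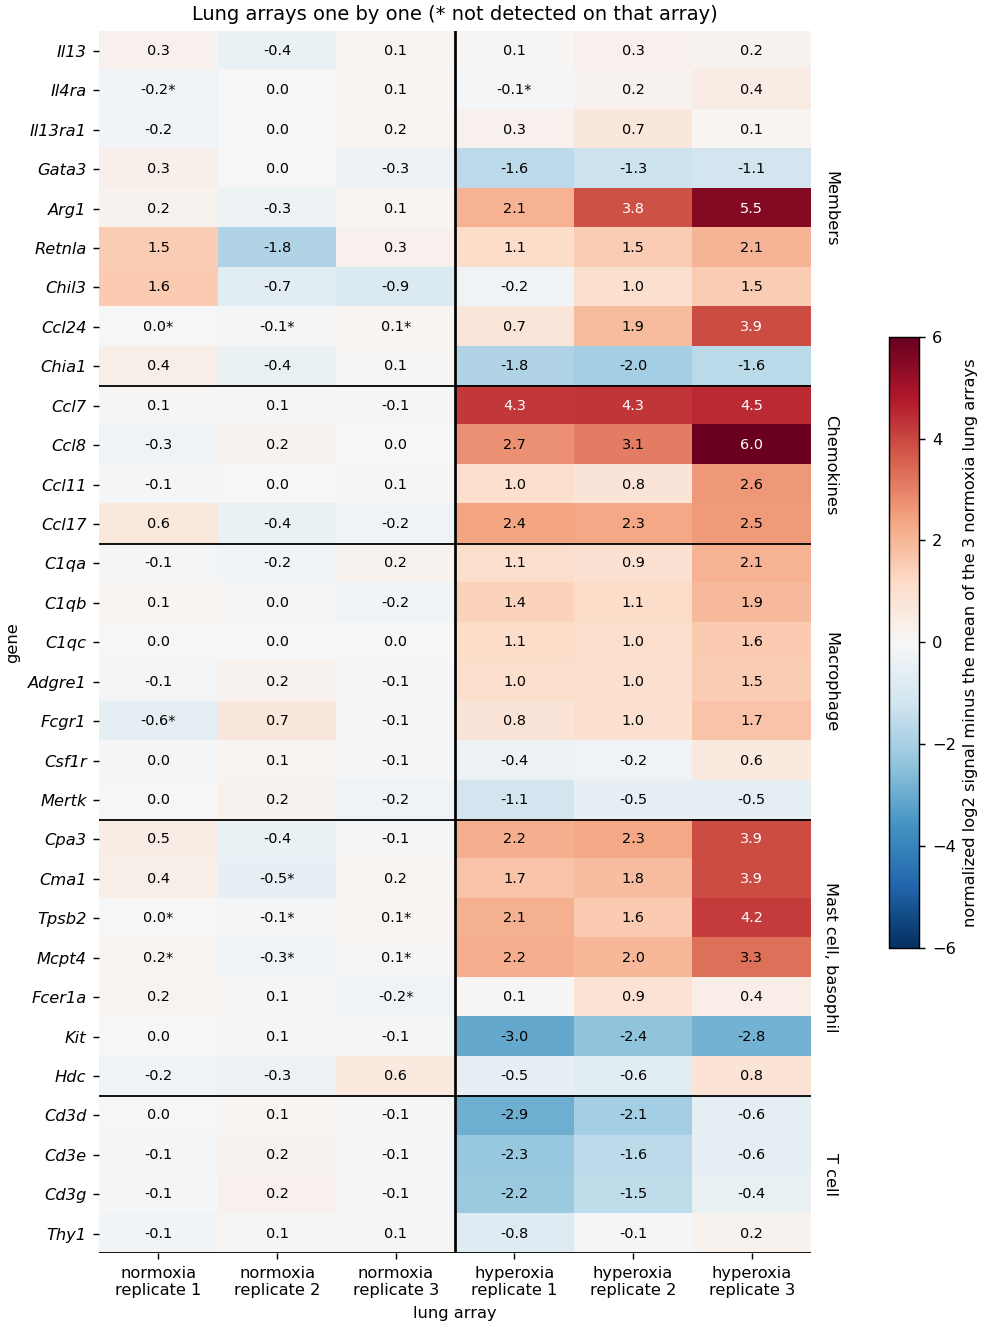
Normalized log2 signal of members and of chemokine, macrophage, mast cell and T cell genes (rows) on each of the 6 lung arrays (columns), as the difference from the mean of the 3 normoxia lung arrays (numbers and colour), with an asterisk where a probe was not detected. Arg1 and Ccl24 are highest on hyperoxia replicate 3, the 3 Cd3 genes are lowest on hyperoxia replicate 1, and Ccl7 is level across the hyperoxia arrays.

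The genes whose pattern over the 12 arrays was most like that of Arg1, among 11786 genes, were Cma1 (Pearson r 0.974), Cpa3 (0.969) and Ccr2 (0.967), the mast cell proteases and the chemokine receptor of monocytes. Cpa3 had group means of 5.80 in normoxia lung, 8.62 in hyperoxia lung, 5.62 in normoxia ileum and 6.17 in hyperoxia ileum. For Ccl24 they were Egr3 (0.910), Cma1 (0.900) and Tmem121 (0.896). For Chia1 they were Atp6v1c2 (0.996), Rasl12 (0.996) and Aox3 (0.995), and for Gata3 Acer2 (0.990), Sh3d21 (0.989) and Fam71f2 (0.985). The last 6 genes share with Chia1 and Gata3 a higher signal in normoxia lung than in the ileum, and all points share their arrays. The genes named for Arg1 and Ccl24 all had their highest group mean in hyperoxia lung. Ccr2 was detected on the 3 hyperoxia lung arrays alone, so its r sets these against background values. The Cma1 probe here is not the one tested among the mast cell markers. These values are descriptions, with no test.

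In normoxia alone, 9 members were tested between the tissues and 5 were called, beside 56.9% of 11622 genes (30.3% higher and 26.6% lower in the lung). Retnla was 12.24 ± 1.70 (SD, n = 3) in the lung and 6.27 ± 0.48 (SD, n = 3) in the ileum, a log2 difference of 5.97 (SE 0.68, adjusted p = 3.81e-06 from limma). Chil3 was 10.99 ± 1.37 (SD, n = 3) in the lung and was detected on 1 of 3 ileum arrays, with a fitted difference of 5.85 (SE 0.54, adjusted p = 4.95e-07 from limma). Chia1 was at least 63.5-fold and Gata3 at least 3.77-fold higher in the lung, since no ileum array detected them and both passed the filter through the lung arrays alone. Il13ra1 was lower in the lung, with a log2 difference of −1.75 (SE 0.23, adjusted p = 1.77e-05 from limma). Arg1, Il4ra, Il13 and Ccl24 did not pass, and Ccl24 was detected on 3 of 3 normoxia ileum and 0 of 3 normoxia lung arrays.

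The difference between the tissues in their response to hyperoxia was tested for 9 members, and 4 were called, beside 25.6% of 12153 genes. The ileum change minus the lung change was −3.44 log2 units for Arg1 (SE 0.82, adjusted p = 0.00873 from limma) and −2.32 for Ccl24 (SE 0.77, adjusted p = 0.0416 from limma). For Chia1 and Gata3 the test compares a measured fall in the lung with an ileum signal that was not detected in either exposure, so no ileum response was measured. The Ccl24 difference was no longer called in 14 of 24 alternative analyses, 9 of which left out 1 array. Retnla, Chil3, Il4ra, Il13 and Il13ra1 did not pass. The Retnla difference was −0.97, with a 95% interval from −3.03 to 1.08.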

How the data were processed

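Total RNA of 12 samples was labelled with biotin and hybridised to MouseWG-6 v2.0 bead arrays. The authors deposited, for each probe and array, a raw intensity and a detection p-value, made with GenomeStudio 2011.1 per the submitters' processing notes, and a second table of normalized log2 values, which served as an alternative. Per the methods, the study used a two-way variance analysis in GeneSpring.

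Here the deposited intensity and detection p-value were background corrected with normexp, quantile normalized and logged with limma 3.58.1 in R 4.3.3 (neqc, offset 16). A limma model with 1 mean per group was fitted over all 12 arrays, with no block. The contrasts were hyperoxia against normoxia in each tissue, the ileum change minus the lung change, and normoxia lung against normoxia ileum. Tested probes had a detection p-value under 0.05 for 3 or more of the 6 arrays compared, the brightest tested probe stood for a gene, and p-values were adjusted by Benjamini-Hochberg over all genes. Of 45281 probes 34885 carried 1 gene symbol, 18 several and 10378 none. Named genes were all members, up to 4 genes of each other list with the largest moderated statistic or any gene where the whole list was described, and the 3 genes with the highest Pearson r to each called member. The members and lists were chosen with earlier results of these data known. The fit was tested on simulated data. Same-numbered replicates did not deviate together (r −0.237 to 0.112), so the numbers were not used as pairs. With 3 arrays against 3 an exact permutation test cannot go below p = 0.1, so none was made. The number of arrays limits the precision. Plots used Python 3.11.15 with matplotlib 3.10.9. Probe sequences were not used here.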

Additional observations from a re-analysis of the deposited data

Results flagged for a closer look

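For 4 genes the fitted difference between the tissues, the ileum log2 change minus the lung log2 change, passed its own test. The value was −3.44 for Arg1 (adjusted p = 0.00873 from limma), a call lost with an ordinary linear model (0.0511). It was −2.32 for Ccl24 (adjusted p = 0.0416 from limma), where the normoxia lung level was below detection and the call was lost in 14 of 24 alternatives. It was 1.80 for Chia1 (adjusted p = 0.00104 from limma) and 1.31 for Gata3 (adjusted p = 0.00476 from limma), both without a detected ileum level, so that no ileum response was measured and no difference of responses is shown. Arg1 and Ccl24 rose on 3 of 3 hyperoxia lung arrays over every normoxia lung array, and Chia1 and Gata3 fell on 3 of 3.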

How the results depend on the processing

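Arg1, Chia1 and Gata3 in the lung kept their direction and their call in all 20 alternatives, although without background correction Gata3 was −0.65 (against −1.32) and Ccl24 1.05 (against 2.19). Without single arrays the count of members called was 4 to 6 in the lung, 0 in the ileum, 3 to 4 for the difference and 5 between the tissues. With array weights 1 ileum member was called (Il4ra, 0.75, adjusted p = 0.0112 from limma), against 0. An ordinary linear model and a covariate for signal over background each called 2 differences, against 4. Ccl24 in the lung was lost with the ordinary model (adjusted p = 0.0654) and was not tested under the stricter detection filter, which left 3 lung members called. Also lost with the ordinary model was the Arg1 difference (0.0511). The Gata3 difference was lost with the covariate (0.0922). The Ccl24 difference had adjusted p-values of 0.105 without background correction and 0.0728 with an offset of 50. The Chil3 difference was −1.92 and called without normoxia lung replicate 1 (0.0244). Some values that passed no test changed sign. These were, with 75th percentile scaling, Ccl24 in the ileum (0.057) and Il4ra between the tissues (−0.0093). With array weights they were Il13 in the ileum (0.18) and the differences of Retnla (0.27), Il13 (0.046) and Il13ra1 (−0.11), and with the covariate Arg1 (−0.76) and Retnla (−0.10) in the ileum. Without single arrays the ranges were −0.017 to 0.33 for Il13 in the lung, −0.42 to 0.13 for Ccl24 in the ileum, −0.079 to 0.40 and −0.061 to 0.33 for the differences of Il4ra and Il13ra1, and −0.20 to 0.29 for Il4ra between the tissues. With a replicate block the counts of members were 4, 0, 4 and 5, the same as without it in the lung, the ileum, the difference and between the tissues. Over all genes, the count called in the lung was 3851 with array weights and 3540 over probes, against 2297. In the ileum it was 1465 with each tissue alone, 4673 with array weights, 5166 over probes, 645 with the covariate, 1435 without normoxia ileum replicate 3 and 1952 without normoxia ileum replicate 2, against 2995. For the difference it was 4686 with array weights, 5259 over probes and 1379 with the covariate, against 3113, and between the tissues 10783 over probes, against 6611. The cause was not tested. Leaving single lung arrays out of the list and marker counts was chosen after seeing the data. Signal over background limits Il4ra, Il13ra2, Ccl24 in normoxia lung, and Chia1, Chil3 and Gata3 in the ileum, which lay at or below detection.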
